A study of Rattus norvegicus with 14 samples.

Results

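The genomic windows described here held several measured stretches of DNA whose methylation in operated rat oesophagus lay on the same side of unoperated oesophagus. Each chromosome from 1 to 20 was divided into tiles of 1 kb and windows of 10 kb. A tile was measured when it held at least 3 CpG cytosines that were each listed in 3 or more libraries of every group. A window was a member when at least 3 of its measured tiles differed from the unoperated mean by 15 percentage points or more in a single direction and none did so in the other. The operated value was the mean of the day 1 and week 1 means. Of 3222 windows with 3 or more measured tiles, 43 met the rule. The operated tissue was higher in 38 of them, called gain windows (G1 to G38), and lower in 5, called loss windows (L1 to L5). This balance depended on whether the libraries were aligned. With the median tile percent of all libraries made equal, the same rule gave 9 windows higher and 24 lower. That alignment lowers operated minus NSC (the unoperated group) by more than the median difference over all measured tiles. Leaving out 1 library at a time gave 2 to 37 gain windows and 1 to 5 loss windows, and requiring 10 reads per cytosine gave 1 and 0. Fewer windows then had 3 measured tiles: 656 to 3157 without 1 library and 149 with 10 reads per cytosine. Numbers run in order of the mean difference over the measured tiles of a window. The 43 windows held 158 of the 64549 measured tiles, 22 of them in loss windows and the rest in gain windows. The members were thus chosen by their measured difference between operated and unoperated tissue, and that difference is given below as a description. Calls of a test against unoperated tissue are given only as counts, from which no support is drawn.

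DNA methylation in mammals lies mainly on the cytosine of CpG dinucleotides. CpG-dense promoters are usually unmethylated, most other CpG sites are highly methylated, and intermediate levels are common at regulatory elements that differ between cell types. Neighbouring CpG sites on a DNA fragment tend to share their state. A tissue sample averages over all its cells, so a different makeup of cells and a different methylation per cell cannot be told apart in these data.

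The tissue was oesophagus of male rats aged 8 to 9 weeks, studied by reduced-representation bisulfite sequencing, which reads CpG-rich fragments cut by MspI. Unoperated controls (NSC, 4 libraries) were full-thickness specimens from animals without surgery. The other animals had the oesophagus repaired with an acellular bi-layer silk fibroin scaffold. Day 1 samples (5 libraries) were punches of the animals' own tissue within 2 mm around the defect, and week 1 samples (4 libraries, day 7) were new tissue from within the graft area. The site of sampling therefore differed between all 3 groups together with the surgery and the time, and these cannot be told apart. The samples analysed here include no operated group without a scaffold. The files hold no expressed marker genes, so the tissue label could not be checked against markers.

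The libraries listed between 1432898 and 4181382 cytosines with at least 5 reads, and the reads summed over them ran from 9676493 to 49782600. Day 1 replicate 2 was the shallowest and stood apart in the windows. It had reads in 25 of 38 gain windows, with every measured tile read in 1 of them, and in 30 of the 115 tiles that passed 15 points there. The median tile percent, averaged over the libraries of a group, was 73.6 in NSC, 82.1 at day 1 and 80.2 at week 1, so most tiles shifted upwards. Over all measured tiles the median difference of operated minus NSC was 2.43 points. Of these tiles 14.7% were 15 points or more above NSC and 3.76% were 15 points or more below.

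In the gain windows, methylation was intermediate in unoperated tissue and high after surgery at both times. Window methylation, the reads summed over the measured tiles, had a median over the 38 windows of 47.1% in NSC, 76.4% at day 1 and 73.2% at week 1. The NSC mean lay between 20 and 80% in 35 of the 38. Day 1 was above NSC in all 38, by 0.928 to 50.1 points with a median of 24.8. The lowest value was that of G30, which stood at 15.3 without day 1 replicate 2, and without that library the lowest was 5.43 points, in G17. Week 1 was above NSC in all 38, by 1.94 to 50.1 points with a median of 22.3. Every library of both operated groups lay above every NSC library in 24 of 38 gain windows, against 8.6% of all windows. Without day 1 replicate 2 the count was 28 of 38, against 10.5% of all windows. The rule used this contrast, so nothing is read from these shares.

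**Figure D1:**
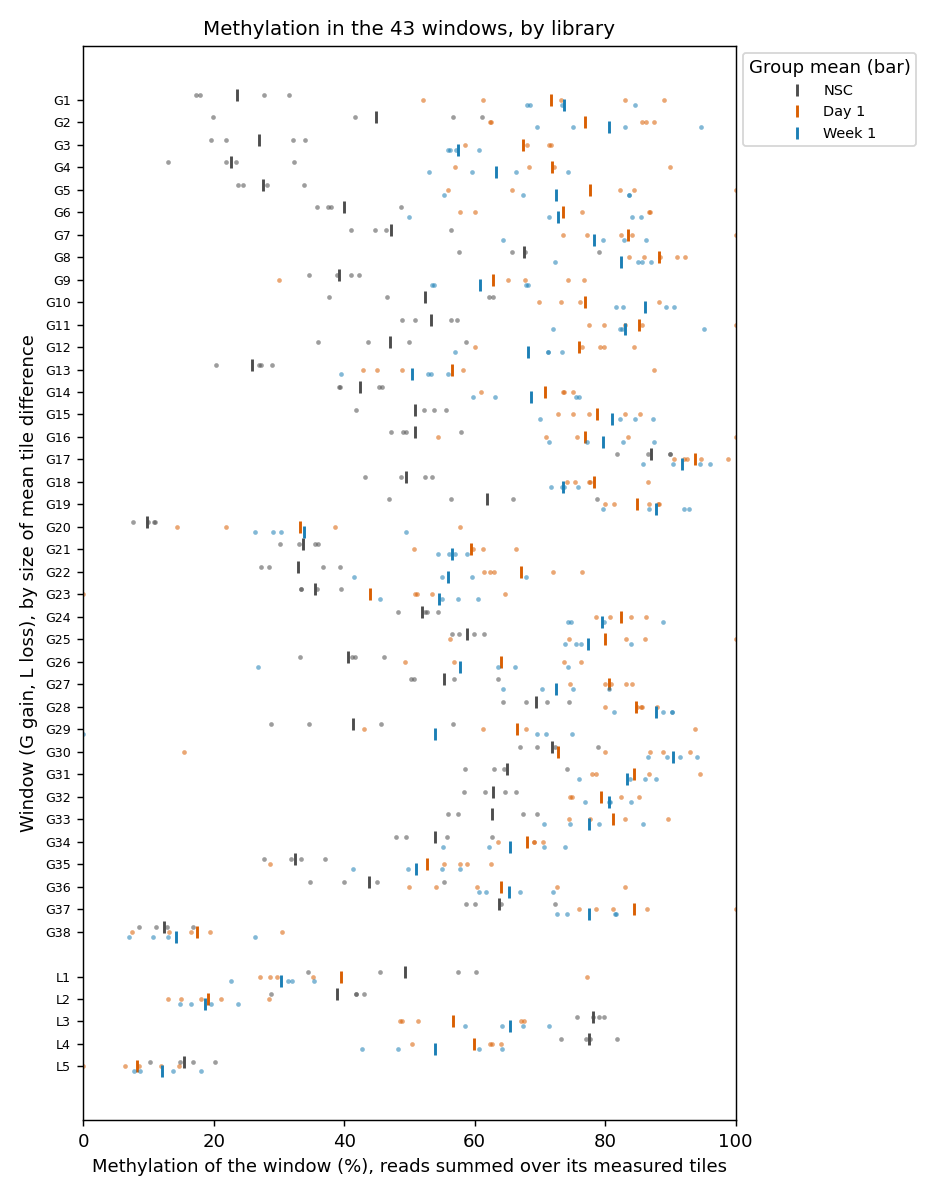
Methylation of each of the 43 windows in percent (horizontal axis, reads summed over the measured tiles of the window), with 1 dot per library and a vertical bar at the mean of each group (grey NSC, orange day 1, blue week 1). In 24 of 38 gain windows all operated libraries lie to the right of all NSC libraries, and in 3 of 5 loss windows they lie to the left.

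The tiles themselves gave like values. In the gain windows 115 measured tiles passed 15 points and 21 did not. The medians of the 115 were 45.5% in NSC, 75.7% at day 1 and 75.9% at week 1. Taken alone, day 1 was 15 points or more above NSC in 106 of the 115 and week 1 in 98. The lowest operated library was above the highest NSC library in 48 of the 115, against 7.08% of all tiles, from which nothing is read. A passing tile rested on few sites, with a median of 5 kept cytosines. Of these single cytosines, 577 of 608 (94.9%) were higher in operated tissue, a share that the choice of the tiles largely fixes. The 21 tiles that did not pass had a median difference of 0 points, between -12.0 and 7.15, and 14 of them were near an end of the scale in NSC, with 10 under 20% and 4 at 80% or more.

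G1, chr20:6280001-6290000 on mRatBN7.2, had the largest mean tile difference and the most passing tiles of any gain window. NSC libraries read 17.3, 31.5, 17.9 and 27.7%. Day 1 libraries read 83.0, 52.0, 89.0, 73.3 and 61.2%, and week 1 libraries 68.1, 84.6, 68.5 and 73.4%. The lowest operated library, day 1 replicate 2 with 25 reads in 1 of 4 tiles, stood above the highest NSC library. The NSC mean was 23.6% ± 7.10 (SD, n = 4). After surgery it was 71.7% ± 15.2 (SD, n = 5) on day 1, and the week 1 mean was 73.6% ± 7.71 (SD, n = 4). All 4 measured tiles passed, they were adjacent, and all 27 of their cytosines were higher in operated tissue.

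The 4 tiles of G1 did not start from one level. The tile at 6284001 was at 8.99, 18.8, 7.02 and 7.58% in NSC, at 90.9, 84.8, 65.1 and 60.0% in the 4 day 1 libraries that read it, and at 76.9, 100, 62.5 and 78.8% at week 1. This tile had the largest difference of all 158, 66.8 points. Its neighbour at 6285001 was already at 75% ± 14.8 in NSC (SD, n = 4) and differed by 16.3 points. The tiles at 6286001 and 6287001 were at 11.6% and 22.1% in NSC and differed by 57.1 and 49.5 points. In the last of these the groups overlapped, with day 1 replicate 5 at 37.5% and week 1 replicate 3 at 36.7% beside an NSC library at 37.0%.

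G2, chr20:10000001-10010000, was the most variable of the leading gain windows in unoperated tissue. NSC libraries read 41.6, 19.8, 56.7 and 61.2%, against 86.2, 85.7, 62.5, 87.5 and 62.4% at day 1 and 69.5, 83.1, 75 and 94.7% at week 1. The groups did not overlap, but the lowest day 1 library was only slightly above the highest NSC library. Several libraries did not read the whole window. Day 1 replicate 2 (85.7%) had 7 reads in 1 of 3 tiles, and day 1 replicate 3 (62.5%) had 32 reads in 1 tile. NSC replicate 4 and week 1 replicates 2 and 3 had reads in 2 tiles. The means were 44.8% ± 18.6 (SD, n = 4), 76.9% ± 13.2 (SD, n = 5) and 80.6% ± 10.9 (SD, n = 4). Its 3 tiles differed by 38.7, 33.2 and 50.7 points.

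G3, chr9:77070001-77080000, had passing tiles at both ends of the window and no measured tile between them. NSC libraries read 34.0, 19.5, 32.2 and 22.0%, the 4 day 1 libraries with reads 71.4, 67.9, 71.7 and 58.5%, and week 1 libraries 56.2, 60.7, 57.1 and 55.9%. The operated libraries were all above NSC, and the week 1 libraries lay within a narrow range around their mean of 57.5% ± 2.20 (SD, n = 4). The tiles at 77070001, 77071001 and 77079001 differed by 42.9, 24.1 and 46.9 points.

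G4, chr3:125610001-125620000, joined tiles of quite different starting level. NSC libraries read 21.9, 32.3, 23.4 and 13.1%, the 4 day 1 libraries with reads 89.9, 57.0, 68.4 and 72.2%, and week 1 libraries 59.6, 74.3, 52.9 and 66.3%, without overlap. The tile at 125612001 went with 7.25% in NSC, 47.9% at day 1 and 26.3% at week 1. The tile at 125613001 stood at 17.5, 69.3 and 79.7% in the same order, and that at 125617001 at 65.8, 91.9 and 91.7%. From day 1 to week 1 the mean of the first of these tiles was thus lower while that of its neighbour was higher.

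Among the gain windows, G21 and G38 had the most measured tiles that did not pass. In G21, chr4:81300001-81310000, the 3 passing tiles were at 4.86, 27.1 and 39.3% in NSC and differed by 25.9, 39.4 and 50.9 points. Its other 2 tiles, at 64.3 and 91.6% in NSC, differed by 1.94 and -12.0 points. In G38, chr15:2310001-2320000, 3 of 7 tiles passed, with differences of 16.5, 23.2 and 22.3 points. The other 4 included 3 tiles that were essentially unmethylated in every group and 1 that differed by -6.75 points. Its window methylation in NSC was 12.4% ± 3.51 (SD, n = 4). On day 1 it was 17.4% ± 8.53 (SD, n = 5), week 1 gave 14.3% ± 8.44 (SD, n = 4), and the groups overlapped. This was the smallest mean tile difference of the gain windows, 7.91 points.

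A window sum can hide what its tiles do. In G17, chr20:7520001-7530000, a deep tile at 96.0% in NSC held most of the reads. The window read 87.0% in NSC and 93.7% at day 1, while its 3 passing tiles differed by 33.7, 28.0 and 34.8 points. In G29 the week 1 replicate 3 window value of 0% came from 1 of 4 tiles, the one that was unmethylated in week 1. In G30 the day 1 mean of 72.8% was 87.2% without day 1 replicate 2, whose reads covered 1 of 4 tiles. Of the tile and library combinations in gain windows, 150 of 1768 had no reads.

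The passing tiles of the 5 loss windows were mostly intermediate or high in unoperated tissue and lower at both times. Their 15 passing tiles of 22 had medians of 72.0% in NSC, 36.4% at day 1 and 39.3% at week 1. Day 1 was 15 points or more below NSC in 13 of the 15 and week 1 in 14. Of 102 cytosines in these tiles, 99 (97.1%) were lower in operated tissue, which the choice of the tiles again largely fixes. All operated libraries lay below all NSC libraries in 3 of 5 loss windows, against 1.68% of all windows, and the same count without day 1 replicate 2 went with 1.8%. In 5 of the 15 passing tiles they did so, against 1.78% of all tiles, and nothing is read from these shares either. Of the 7 tiles that did not pass, 4 were under 20% in NSC, where a fall of 15 points has little or no room.

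L1, chr3:41690001-41700000, was the loss window with the largest mean tile difference, -22.8 points. NSC libraries read 34.5, 45.5, 60.1 and 57.4%, day 1 libraries 27.1, 77.3, 28.6, 29.8 and 35.2%, and week 1 libraries 31.4, 22.7, 35.4 and 32.1%. The value of 77.3% belonged to day 1 replicate 2, which had 22 reads in 1 of the 4 tiles. Without it the day 1 mean was 30.2% ± 3.53 (SD, n = 4) in place of 39.6% ± 21.3 (SD, n = 5). Its 3 passing tiles were adjacent and differed by -29.2, -38.0 and -23.8 points, and a nearby tile was unmethylated in all groups.

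L2, chr10:70730001-70740000, was the loss window in which every measured tile passed. NSC libraries read 43, 41.8, 28.8 and 41.8%, day 1 libraries 21, 15, 28.4, 18.1 and 12.9%, and week 1 libraries 23.8, 14.8, 19.6 and 16.5%. The groups touched but did not overlap: the lowest NSC library was 28.8% and the highest operated library 28.4%. Its adjacent tiles at 70733001, 70734001 and 70735001 were at 55.8, 30.0 and 22.5% in NSC and differed by -25.5, -23.4 and -15.9 points.

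L3, chr12:33830001-33840000, was tight in unoperated tissue and spread out after surgery. NSC libraries read 78.1, 79.9, 79.0 and 75.7%, day 1 libraries 48.5, 48.8, 67.1, 51.2 and 67.5%, and week 1 libraries 67.4, 64.2, 58.5 and 71.4%. No operated library reached the lowest NSC library. The passing tile at 33837001 was at 86.5% ± 9.04 (SD, n = 4) in NSC. Its day 1 mean was 28.5% ± 23.5 (SD, n = 4) and its week 1 mean 53.9% ± 32.8 (SD, n = 4), so the spread between libraries was about as wide as the distance between the 2 times. Its remaining tile, directly before the passing run, was 7.10 points higher in operated tissue.

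L4, chr4:115410001-115420000, held the tile with the largest negative difference among all members. This tile, at 115413001, was at 76.7% in NSC, 20.9% at day 1 and 20.4% at week 1, a difference of -56.0 points. Over the window, NSC libraries read 77.0, 81.9, 77.7 and 73.3%, the 4 day 1 libraries with reads 50.3, 62.3, 62.7 and 64.0%, and week 1 libraries 60.6, 64.1, 48.2 and 42.8%, without overlap. Its measured tiles at 115416001 and 115418001, at 78.6 and 94.1% in NSC, differed by 5.47 and 3 points, so highly methylated tiles that were not lower adjoined the passing tile at 115417001 on both sides.

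L5, chr17:9300001-9310000, mixed 3 passing tiles with 3 tiles near 0. The passing tiles were at 80.4, 78.0 and 33.5% in NSC and differed by -25.4, -34.6 and -20 points. The tile at 9300001 was at 1.43% in NSC, 16.7% at day 1 and 8.50% at week 1, a difference of 11.2 points in the other direction that stayed under the limit of 15. The 3 tiles near 0 held most of its reads. In points, the window sum moved less than the passing tiles. It had an NSC mean of 15.5% ± 4.12 (SD, n = 4) and a day 1 mean of 8.31% ± 5.60 (SD, n = 5). The week 1 mean was 12.1% ± 4.78 (SD, n = 4), and the groups overlapped. Day 1 replicate 2 was at 0% on 29 reads in 1 of 6 tiles. Without that library the day 1 mean was 10.4% ± 3.62 (SD, n = 4).

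**Figure D2:**
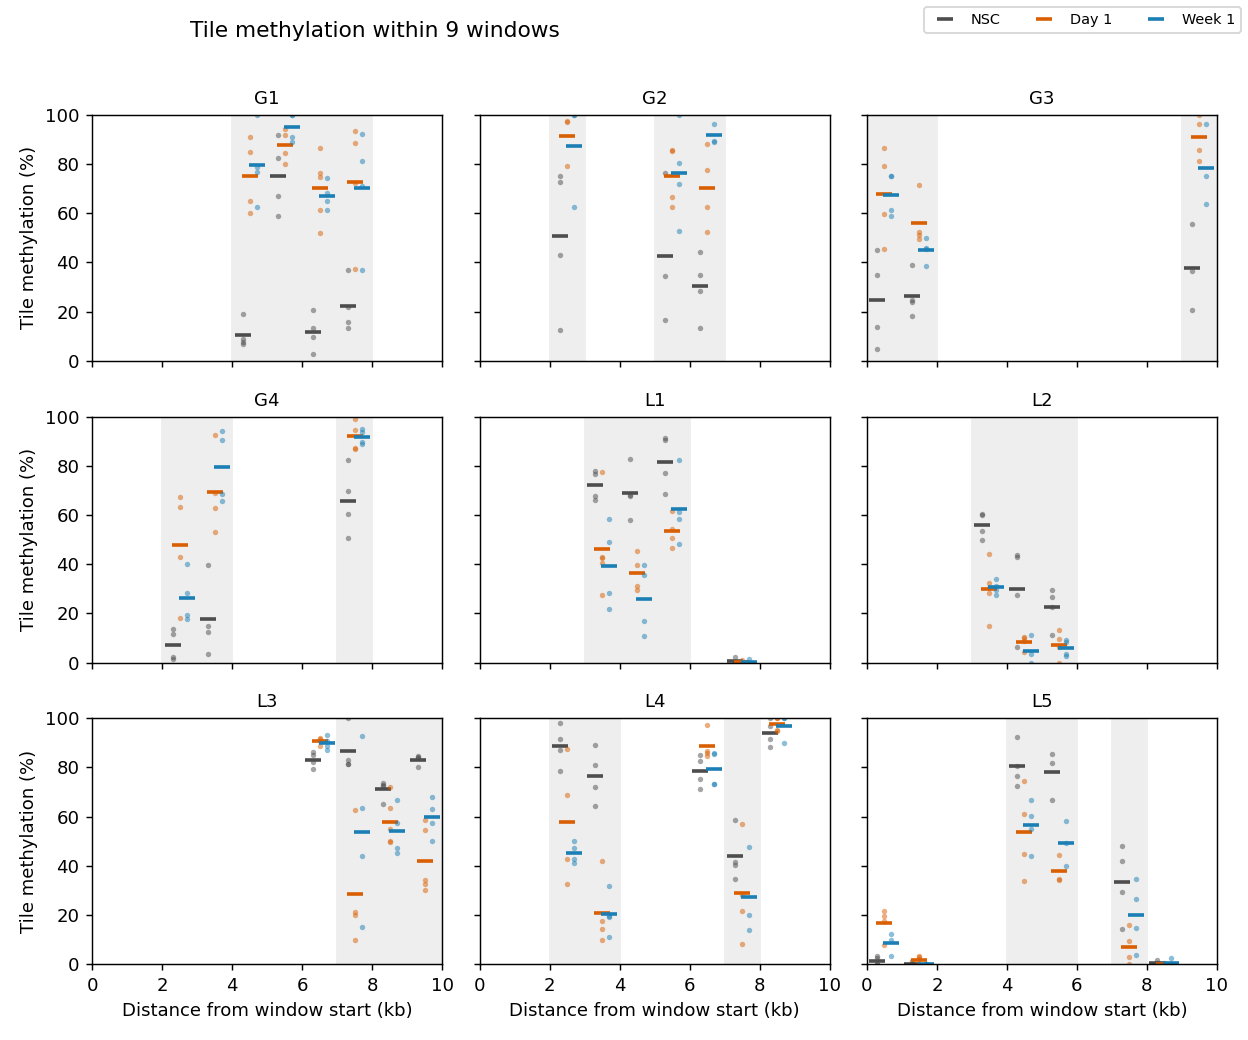
Tile methylation in percent (vertical axis) along 9 windows (horizontal axis, distance from the window start in kb). Dots are libraries, bars are group means (grey NSC, orange day 1, blue week 1) and grey bands mark tiles that passed 15 points. In G1 the 4 adjacent tiles start at 10.6, 75, 11.6 and 22.1% in NSC, and in L5 tiles near 0 flank the lower tiles.

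The edgeR quasi-likelihood test on methylated and unmethylated reads, with p-values adjusted over all windows (called at an adjusted p below 0.05 and 10 points or more), was also run against NSC as a description. It called 27 of 38 gain windows higher at day 1, where it called 9.06% of all windows higher. At week 1 it called 19 of 38, where it called 3.04% of all windows higher. Of the loss windows it called 3 of 5 lower at day 1 and 2 of 5 at week 1, against 1.43% and 0.559% of all windows. The rule used these contrasts, so the counts lend no support to the members. At the tile scale it called 51 of the 115 passing gain tiles higher at day 1 (7.17% of all tiles) and 35 at week 1 (3.5%). Of the 15 passing loss tiles it called 8 lower at day 1 (1.86% of all tiles) and 5 at week 1 (1.29%).

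Week 1 against day 1 was not used by the rule and was tested. With edgeR, 0 of 3222 windows were called (0% of windows in either direction), so no member was. At an unadjusted p below 0.05, edgeR marked 163 of all windows, 0.931% of them higher and 4.13% lower at week 1, and 0 of the 43 members. limma on the window percents also called 0 windows, with 240 at an unadjusted p below 0.05, among them 2 members, G3 and G27. The smallest adjusted p of edgeR among the 43 was 0.893. At the tile scale edgeR called 0 of 64549 tiles (0%), with 3999 at an unadjusted p below 0.05 (1.63% of tiles higher and 4.57% lower), and limma called 0, with 4752. Of the 115 passing tiles in gain windows, 4 were under that unadjusted p, 2 higher and 2 lower. Of the 15 in loss windows 2 were, both higher.

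The differences behind those tests were not tightly bounded. In gain windows week 1 minus day 1 ran from -12.6 to 17.6 points with a median of -2.40, and it was above 0 in 12 of 38 (31.6%). Both ends rested on sparsely read libraries. The 17.6 points of G30 were 3.24 without day 1 replicate 2, which had 13 reads in 1 tile there. The -12.6 points of G29 were 5.32 without week 1 replicate 3, which had 25 reads in 1 tile, and 0.311 as a mean of tile differences. Over all windows the median was -1.14 and 37.8% were above 0. In loss windows it ran from -9.21 to 8.76 points and was above 0 in 2 of 5. The -9.21 points were those of L1, which stood at 0.214 without day 1 replicate 2, so that 3 of 5 were then above 0. The 95% intervals of limma had half-widths between 5.60 and 36.7 points, with a median of 11.4. They stayed within 20 points of 0 in 31 of the 43 windows. A missed threshold therefore does not show that day 1 and week 1 were alike. On simulated counts the window test recovered 83 of 100 windows changed by a log2 odds ratio of 2. It recovered 12 of 100 changed by 1. The spread between libraries in these counts was assumed, so the shares hold for that spread and may be lower where libraries differ more. The tile test recovered 0 of 100 at either size, so its count of 0 says little.

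Among the members, the lowest p-values for a higher level at week 1 were in G10 and L3, and those for a lower level in G22 and G12. In G10, chr1:239180001-239190000, the 4 day 1 libraries with reads were at 73.1, 88.2, 76.1 and 69.8% and the week 1 libraries at 81.7, 89.4, 82.7 and 90.5%. The difference was 9.22 points (limma 95% interval -3.95 to 22.4; edgeR adjusted p = 0.893), and the times overlapped. In G12, chr1:197670001-197680000, day 1 libraries read 79.3, 60.0, 76.5, 84.3 and 79.8% and week 1 libraries 71.3, 73.4, 57.0 and 71.2%. Here the difference was -7.77 points (limma 95% interval -20.3 to 4.73, edgeR adjusted p = 0.893). The overlap came from day 1 replicate 2 alone, at 60.0% on 5 reads in 1 of 3 tiles. Without that library the difference was -11.8 points (edgeR adjusted p = 0.736). In L3 the difference was 8.76 points (limma 95% interval -1.01 to 18.5; edgeR adjusted p = 0.893).

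G22, chr1:80200001-80210000, shows that the sign can depend on how tiles are joined. Day 1 libraries read 62.3, 76.5, 63.0, 72.1 and 61.5% and week 1 libraries 59.5, 67.8, 41.4 and 55%, a difference of -11.1 points (limma 95% interval -22.5 to 0.252; edgeR adjusted p = 0.893). The mean of its tile differences was 8.80 points higher at week 1. Its tiles at 80200001, 80201001, 80202001 and 80203001 differed by 27.9, -0.481, -7.31 and 15.1 points, all above the difference of the window sum. G3 had a difference of -9.89 points, and the limma interval of -18.4 to -1.38 left out 0, with an adjusted p of 0.627 by limma and 0.893 by edgeR. G1, G2 and G4 differed by 1.96, 3.68 and -8.57 points, and their intervals included 0.

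**Figure D3:**
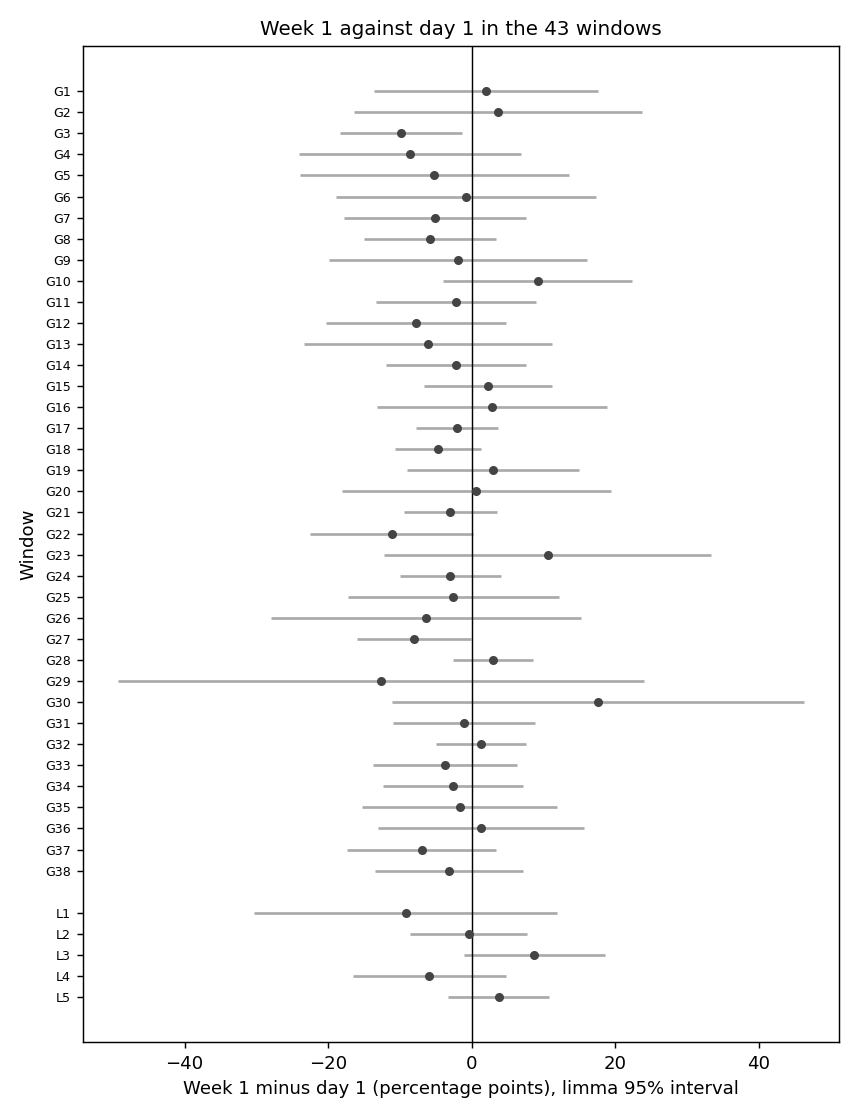
Difference of week 1 minus day 1 in percentage points (horizontal axis) for each of the 43 windows, with the limma 95% interval as a bar. The points lie between -12.6 (G29, 5.32 without week 1 replicate 3) and 17.6 (G30, 3.24 without day 1 replicate 2), and 2 intervals, those of G3 and G27, leave out 0.

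Whether the members behave as blocks of several kilobases was checked with what lies between and around their tiles. The passing tiles spanned 1138 to 9601 bp in the gain windows, with a median of 4649 bp from the first to the last kept cytosine. They formed an unbroken run of adjacent tiles in 4 of 38 gain windows, and at least 1 adjacent pair in 32. In 9 gain windows a measured tile between passing tiles did not pass, and the remaining gaps held no measured tile. The loss windows had unbroken runs in 3 of 5, an adjacent pair in all 5, and spans of 2173 to 4427 bp. No member window adjoined another, and the closest pair, G13 and G17 on chromosome 20, lay 0.39 Mb apart.

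Outside the gain windows the share of higher tiles was near that of all tiles in the first 5 kb and above it at 6 to 20 kb, on few tiles. Of the measured tiles 1 to 5 kb beyond the gain windows, 4 of 24 (16.7%) were 15 points or more above NSC, beside 14.7% of all measured tiles. At 6 to 10 kb the count was 9 of 34 (26.5%), at 11 to 20 kb 14 of 52 (26.9%) and at 21 to 50 kb 28 of 195 (14.4%). Near the loss windows only 4 tiles were measured within 10 kb, and 0 of them were 15 points or more below NSC. Inside the gain windows, 34 kept cytosines lay outside measured tiles, and 24 of these were higher in operated tissue, with a median of 8.87 points. In loss windows 3 of 7 such cytosines were lower.

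Over all measured tiles, the shift was shared most often with the next tile. There were 9269 pairs at 1 kb, 4684 at 2 kb and 3724 to 4148 at each distance from 3 to 9 kb. Tiles 1 kb apart adjoin, so a read across their border counts in both. How many pairs share reads in this way was not counted. A tile 1 kb from a tile that was 15 points or more above NSC was also above in 28.6% of cases, beside 11% of all tiles in such pairs. At 2 kb this was 15.7% beside 13.3%, and between 3 and 9 kb it was 16.5 to 20.2% beside 13.3 to 15.1%. For tiles below NSC the share was 24.6% beside 3.36% at 1 kb. It was 10.2% beside 4.57% at 2 kb and 10.1% beside 4.51% at 3 kb, and from 4 to 9 kb it was 2.6 to 7.69% beside 3.73 to 4.94%. Across pairs of tiles, which are not independent, the correlation of the 2 differences was 0.31 at 1 kb and between 0.02 and 0.08 from 2 to 9 kb. The pairs share their libraries, so part of any correlation comes with the group means.

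Within a group, the tiles of a window moved together little from library to library. For 117 pairs of passing tiles in gain windows, the deviations of the libraries from their group means had a correlation of 0.05. In loss windows it was 0.03 over 15 pairs, and in other windows it was 0.04 over 1955 pairs of tiles at 20 to 80% in NSC. By group, the gain value was 0.00 in NSC, 0.12 at day 1 and 0.02 at week 1, and the loss value 0.21, 0.11 and -0.14. These values describe sparse counts and are no finding in either direction. Most gaps between passing tiles were unmeasured, so whether the members are continuous blocks of several kilobases could not be seen in most of them, and they are called here by the rule.

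**Figure D4:**
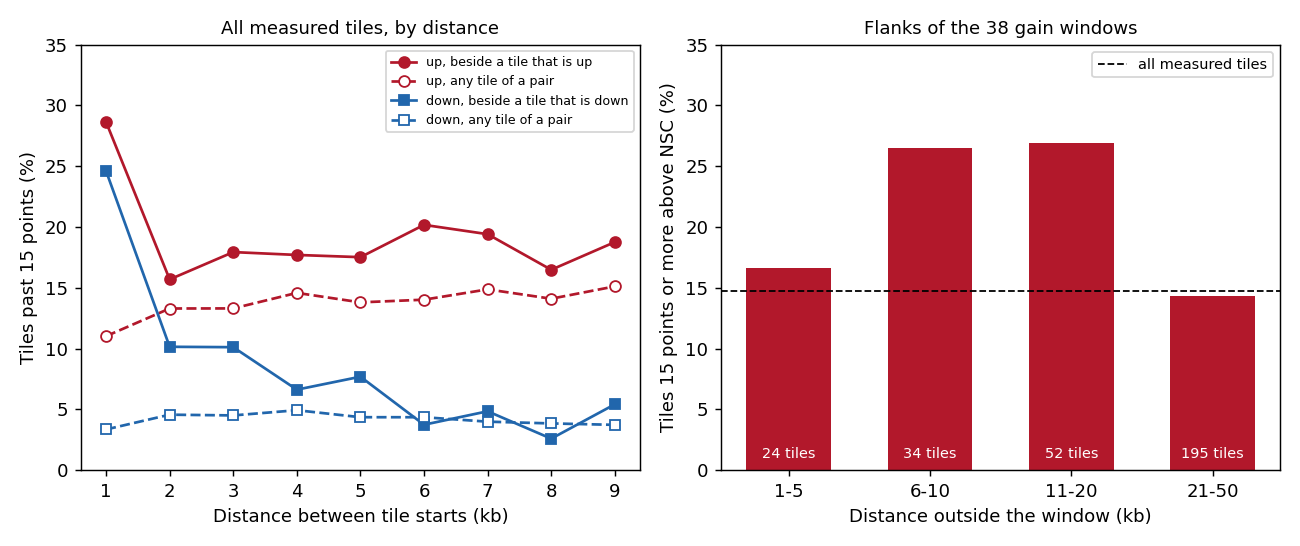
Left, the share in percent of measured tiles 15 points or more above (red) or below (blue) NSC that lie at each distance in kb from a tile shifted the same way (filled) and among any tiles paired at that distance (open). Right, the share of tiles 15 points or more above NSC outside the gain windows, by distance in kb, with the number of tiles in each bar and the 14.7% of all measured tiles as a dashed line.

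Other features of the passing tiles were set beside those of other shifted tiles. The passing gain tiles held a median of 24 cytosines listed in any library. The median was 23 in the 1306 other tiles that were 15 points or more above NSC in windows with 3 or more measured tiles. The SD among NSC libraries had a median of 10 points in the passing tiles and 9.51 in those other tiles, against 5.32 over all measured tiles. NSC methylation lay between 20 and 80% in 98 of the 115 passing gain tiles and in 1147 of the 1306 others, against 23814 of 64549 tiles overall. A tile near 100% cannot be 15 points higher, and the rule used the NSC mean, so this last feature is partly set by the choice of tiles. Week 1 minus day 1 had a median of -0.185 points in the passing gain tiles, -1.96 in the others and -0.801 over all tiles.

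The gain windows lay on 16 of 20 chromosomes. On chromosome 20, 7 of 192 windows with 3 or more measured tiles were gain windows (3.65%), namely G1, G2, G8, G13, G17, G24 and G35. On chromosome 1 it was 5 of 345 (1.45%). Over all 3222 such windows the share was 1.18%. Whether chromosomes differed was not tested, and the counts per chromosome were small. Chromosomes 2, 8, 17 and 18 held no gain window, and the loss windows were on chromosomes 3, 4, 10, 12 and 17. A gene annotation and genome sequence of the assembly used by the files were not used here, so no gene, promoter or sequence is named.

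At the threshold, members and non-members differed little. The third largest tile difference, which decides membership, was 15.4 points in G19, 15.4 in G33 and 15.6 in G36, and 14.7, 14.4 and 14.2 points in the 3 gain candidates just outside. Among loss windows it was -15 in L3, -15.8 in L4 and -15.9 in L2, and -14.2, -12.2 and -10.3 just outside. In 2 windows, on chromosomes 1 and 8, 3 tiles passed in one direction and 1 in the other, so they were not members. Aligning the median tile percent of all libraries gave 9 windows higher and 24 lower by the same rule. Of these 33 windows, 14 were among the 43 members. The alignment lowers operated minus NSC by 7.49 points, more than the median difference over all measured tiles given above. Under the alignment the medians of the passing tiles were 15.8 points in the gain windows and -33.6 in the loss windows. There 63 of the 115 gain tiles stayed past 15 points. A shift of this size could turn no passing tile.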

How the data were processed

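Per the labels' protocols, DNA of rat oesophagus was cut with MspI and CpG methylation was read by reduced-representation bisulfite sequencing. The assembly was mRatBN7.2. The tools named in the submitters' processing notes, without stated roles, are Bismark 0.23.0, methylKit 1.14.2, FastQC and Trim Galore. The deposited files give, per cytosine, the count of methylated reads and the count of all reads, without normalization, and the methylation in percent, which the authors truncated. All listed cytosines had at least 5 reads. Of 14 samples, 13 had a file, and 1 week 1 sample was not analysed here. Groups came from the time label. Replicates were numbered in accession order, and the labels do not state separate animals, so p-values measure only the spread between these samples.

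Percent was recomputed from the deposited counts summed per tile or window, as stated at the start of the report. A read over several cytosines counts at each. Windows and tiles were tested in edgeR 4.0.16 (R 4.3.3) on methylated and unmethylated counts, with an effect per library, group effects, a common dispersion, quasi-likelihood F tests and Benjamini-Hochberg adjustment over all windows or tiles. limma 3.58.1 on percent gave intervals and an alternative. The edgeR test was also run on simulated counts with an assumed spread between libraries, and limma was not. Named windows were, in each direction, the 4 with the most passing tiles and the 4 with the largest mean difference. Also named were the 3 with the most measured tiles (no member windows were adjacent), where a tie kept both G21 and L4. The 2 with the lowest p in each direction for week 1 against day 1 were added. Others were named after their values were seen. Gene lists were planned but need an annotation of mRatBN7.2, which was not used here. The members, tests and lists were chosen with earlier results of these data known.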

Additional observations from a re-analysis of the deposited data

Results flagged for a closer look

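Among 42 sets of libraries (the groups of the 14 named windows), 4 had a library far from the others of its group by Dixon's criterion, and chance marks about 1 in 20 sets. In L1, day 1 replicate 2 was at 77.3% while the other day 1 libraries lay between 27.1 and 35.2%. It had 22 reads in 1 of 4 tiles (exact Clopper-Pearson 95% interval 54.6 to 92.2%, counting error only). In L2, NSC replicate 3 was at 28.8% on 482 reads (exact interval 24.8 to 33.1%), and the other NSC libraries lay between 41.8 and 43%. In L4, day 1 replicate 1 was at 50.3% on 592 reads (exact interval 46.2 to 54.4%), and the others lay between 62.3 and 64.0%. In G12, week 1 replicate 3 was at 57.0% on 79 reads (exact interval 45.3 to 68.1%), and the others lay between 71.2 and 73.4%.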

How the results depend on the processing

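The number of members depended strongly on the thresholds. Some of these also left fewer windows with 3 measured tiles than the 3222 reported. There were 149 with at least 10 reads per cytosine and 891 with at least 5 cytosines per tile. Gain windows, loss windows and member tiles numbered 38, 5 and 158 as reported, 1, 0 and 3 with at least 10 reads per cytosine, 5, 2 and 24 with at least 5 cytosines per tile, 14, 2 and 60 at 20 points, 90, 8 and 382 at 10 points, and 1, 0 and 4 with 4 tiles per window. With libraries centred there were 9 gain and 24 loss windows, and with the week 1 mean alone, an alternative added after the data were seen, 24 gain windows. Of the 43 members, 14 stayed members in their direction with libraries centred and 25 with the week 1 mean alone. Shifted windows, the mean of all operated libraries, the mean of cytosine percents, a coverage limit and the day 1 mean alone (also added) kept all 3 counts within 1.5 times. Like counts did not always mean the same windows. The day 1 mean alone kept 32 of the 43 members, and the mean of cytosine percents 38. The mean of all operated libraries and the coverage limit each kept 42. Shifted windows have other borders and were not matched to the members. Without 1 library in turn, fewer tiles had 3 libraries per group, and windows with 3 measured tiles numbered 656 to 3157. Gain windows then ranged from 2 to 37, loss windows from 1 to 5 and member tiles from 16 to 154. With the measured tiles kept (added) gain windows ranged from 33 to 42 and loss windows from 3 to 7, but these were not always the same windows. Of the 43 members, between 33 (without NSC replicate 1 or 2) and 43 (without day 1 replicate 5) stayed members. All passing tiles kept their direction, which their choice at 15 points largely fixes. Week 1 against day 1 called 0 windows under every alternative run. It called 2 tiles with at least 10 reads per cytosine and 0 to 1 without 1 library, the 1 without week 1 replicate 3. Without week 1 replicate 4 the smallest edgeR adjusted p over all windows was 0.0202. There only the limit of 10 points kept the count of windows at 0. Week 1 minus day 1 reversed in some named windows without 1 library: G1 ranged from -2.96 to 6.29 points, with -0.663 without day 1 replicate 5 and -1.70 without week 1 replicate 2, G2 from -1.03 to 7.37, G38 from -7.16 to 0.129, L1 from -12.3 to 0.214 and L2 from -2.10 to 1.92, with 0.0780, 0.868 and 0.318 in between. As a mean of tile differences (added) G22 was at 8.80 and G38 at 0.267. The cause of these moves was not tested. No paired analysis was possible because the labels give no replicate numbers shared between groups.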
